A study of Mus musculus with 8 samples.

Results

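The loops described here are the long-range loops of the knock-in ZT10 library, an in-situ ChIA-PET library of mouse liver pulled down with anti-HA beads. They were chosen by 3 values of the deposited list: both anchors on 1 nuclear chromosome, a span between anchor midpoints over 100 kb and up to 500 kb, and both anchors 700 bp or wider. Of the 57865 nuclear loops of that library, 5950 (10.3%) met the rule, and they are called the long-range loops below. All 6 libraries used listed 277517 nuclear loops. A loop is a pair of anchor intervals joined by paired-end tags (PETs), each PET being a DNA fragment whose ends map to both anchors, and its PET count is its strength. Spans, widths and PETs of the long-range loops come from the file that chose them and are given as description, with no test.

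The knock-in ZT10 library came from REV-ERBa3HA/3HA livers at zeitgeber time 10 (ZT10), in which the animals' own REV-ERBα carries 3 HA tags, and the same genotype at ZT22 gave 1 more library. The other 4 libraries came from REV-ERBaf/fREV-ERBbf/f livers at ZT10. All of those animals had received AAV8-TBG-Cre, which removes both floxed receptor genes where the hepatocyte promoter TBG is active. They also received either AAV8-TBG-3HA-REV-ERBa-delhIDR, a tagged receptor that by its label lacks the hIDR (dhIDR, 2 libraries), or AAV8-TBG-3HA-REV-ERBa-WT (WT, 2 libraries). In these 4 livers the tagged protein is therefore made from a hepatocyte transgene, and cells other than hepatocytes keep their untagged receptors. The labels number the AAV replicates but do not say that they came from separate animals.

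REV-ERBα, encoded by Nr1d1, is a nuclear receptor of the circadian clock that represses transcription, mainly by recruiting the NCoR-HDAC3 corepressor complex. It binds DNA at the hexamer AGGTCA preceded by an A/T-rich stretch, competing there with the ROR activators, and it also reaches liver genes through other bound factors. In liver it peaks in the later part of the light phase, near ZT10, and is low near ZT22, and it is known for its action on the clock and on lipid, bile acid and glucose metabolism.

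Promoters under 5 anchors of strong long-range loops are printed here because a pair of them are clock genes and the other 3 are long noncoding RNA (lncRNA) starts at anchors that lie far from protein-coding promoters or share one with a clock gene. The 5 were picked after their values were seen, and the choice favours windows that hold AGGTCA. All but Npas2 hold it on either strand, against 33 of 143 promoters at long-range anchors with 10 or more PETs. Windows of Id2, Foxa2, Tbl1xr1, Cxcl12, Ptp4a1 and the lncRNA gene Gm35222, at loops of 47 to 85 PETs, hold none and are not printed. Each printed window is the 250 bases upstream of an annotated start, from RefSeq (GRCm38.p6, whose coordinates are those of mm10), 5′ to 3′ on the gene's strand, in lower case. Capitals mark AGGTCA or its reverse complement TGACCT. The windows are chr1:39194022-39194271 on the plus strand for Npas2, chr13:52981040-52981289 on the minus strand for Nfil3, and chr8:35218390-35218639 on the plus strand for Gm34474. They are chr6:108660935-108661184 on the minus strand for 0610040F04Rik and chr16:24090066-24090315 on the minus strand for Gm31583.
Npas2: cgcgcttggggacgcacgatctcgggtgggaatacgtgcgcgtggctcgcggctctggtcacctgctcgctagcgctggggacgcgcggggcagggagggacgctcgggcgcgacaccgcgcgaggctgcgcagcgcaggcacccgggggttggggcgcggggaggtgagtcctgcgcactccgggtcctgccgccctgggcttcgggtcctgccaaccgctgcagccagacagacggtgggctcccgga
Nfil3: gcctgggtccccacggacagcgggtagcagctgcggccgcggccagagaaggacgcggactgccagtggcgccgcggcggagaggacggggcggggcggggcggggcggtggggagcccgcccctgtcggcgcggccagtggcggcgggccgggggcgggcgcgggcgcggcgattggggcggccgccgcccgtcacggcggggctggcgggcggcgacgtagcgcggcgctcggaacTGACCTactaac
Gm34474: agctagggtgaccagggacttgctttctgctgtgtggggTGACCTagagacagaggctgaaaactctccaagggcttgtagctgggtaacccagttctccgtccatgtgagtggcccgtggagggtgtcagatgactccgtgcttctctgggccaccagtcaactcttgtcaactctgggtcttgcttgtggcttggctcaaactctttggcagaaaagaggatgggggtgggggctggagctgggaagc
0610040F04Rik: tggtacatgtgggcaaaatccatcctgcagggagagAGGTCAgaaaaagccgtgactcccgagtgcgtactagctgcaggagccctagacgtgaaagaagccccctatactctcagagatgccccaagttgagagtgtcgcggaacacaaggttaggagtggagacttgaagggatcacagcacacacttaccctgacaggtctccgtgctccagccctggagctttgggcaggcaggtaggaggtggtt
Gm31583: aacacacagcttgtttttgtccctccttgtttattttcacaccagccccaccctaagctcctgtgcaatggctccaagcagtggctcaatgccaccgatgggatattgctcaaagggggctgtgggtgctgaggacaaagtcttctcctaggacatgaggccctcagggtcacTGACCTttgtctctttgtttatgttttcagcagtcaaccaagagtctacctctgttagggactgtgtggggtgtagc
Npas2 encodes a partner of the clock activator BMAL1, and its window holds neither AGGTCA nor the E-box CACGTG on either strand. In Nfil3, which encodes a repressor of the clock's output genes, the hexamer begins at position -12 from the annotated start. It begins at -211 in Gm34474, which lies under an anchor of a 93-PET loop near Ppp1r3b, at -214 in 0610040F04Rik, which shares its anchor with Bhlhe40, and at -77 in Gm31583, under an anchor of a 41-PET loop and 99.6 kb from Bcl6. Over the 973 annotated promoters (250 bases before to 50 after a start) that a long-range anchor overlapped, 161 (16.5%) held AGGTCA on either strand, against 16.3% of all 32851 promoters in the table. At anchors of long-range loops with 10 or more PETs the share was 33 of 143 (23.1%, Wilson 95% interval 16.9 to 30.6%). The 143 promoters belong to 111 genes and the 973 to 846, and overlapping windows of 1 gene can hold the same hexamer, as at Gm39671. Promoters are therefore not independent, and the interval does not allow for that. CACGTG stood in 8.43% of the 973, in 9.09% of the 143 and in 7.15% of all promoters. A match of letters is not a bound site.

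Most long-range loops were weak, and a small number held many PETs. The 5950 loops carried 29497 PETs, 9.21% of the 320427 PETs listed in the library. Their median was 3 PETs, the lowest count deposited, and 51.1% had exactly that. The upper quartile lay at 5 PETs, the 95th percentile at 12 and the maximum at 101, with a mean of 4.96 ± 5.07 PETs (SD over loops). Loops with 10 or more PETs numbered 418 (7.03%) and held 25.9% of the PETs, 110 (1.85%) had 20 or more, and 20 had 40 or more. The strongest ranked 60 among all ZT10 loops.

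Long-range loops had fewer PETs than shorter ones that met the same minimum on anchor width. The 35082 ZT10 loops with both anchors 700 bp or wider and spans up to 100 kb had a median of 4 PETs, a mean of 6.77, a maximum of 374 and 14.0% at 10 or more PETs. The 325 such loops over 500 kb had a mean of 3.85 PETs, a maximum of 22 and 1.85% at 10 or more. Among all wide-anchor ZT10 loops the long-range ones made up 14.4% of those with 3 or more PETs, 7.85% of those with 10 or more and 3.85% of those with 40 or more. The anchor rule bore on strength too: the 3118 ZT10 loops of the same span with a narrower anchor had a mean of 3.16 PETs and none above 8. The narrower anchor of a loop had a median width of 1005 bp in the long-range loops and 1092 bp in those up to 100 kb, so widths were not matched. Loops of 1 library share their source, so these differences have no replicate error and were not tested.

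**Figure D1:**
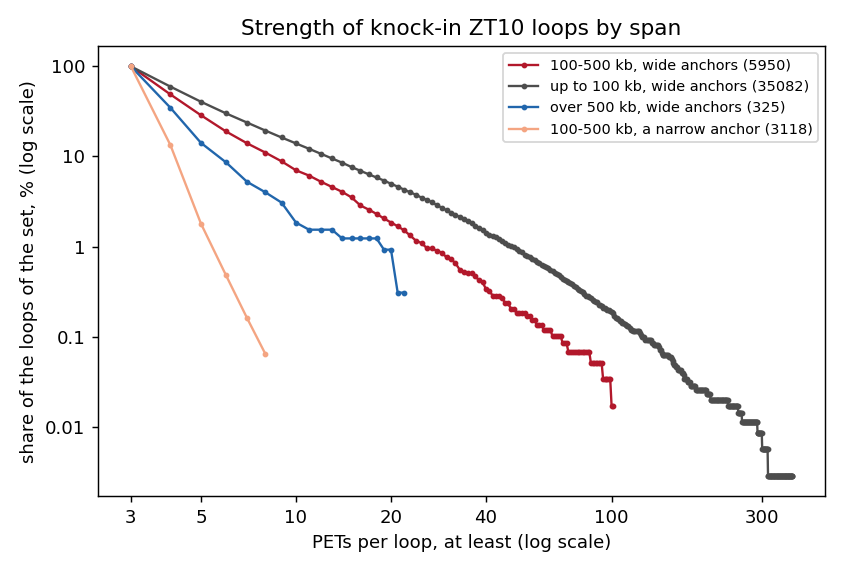
Share of the loops of each set (vertical axis, percent, log scale) that had at least the PETs on the horizontal axis (log scale), for 4 sets of knock-in ZT10 loops by span and anchor width, where wide means both anchors 700 bp or wider. The curve of the 5950 long-range loops lies below that of the 35082 wide-anchor loops up to 100 kb and above that of the 325 loops over 500 kb, and the 3118 loops with a narrow anchor end at 8 PETs.

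Within the class, spans leaned to the short side and strength changed little with span up to 300 kb. The median span was 154 kb (quartiles 121 and 221 kb), and 69.0% spanned at most 200 kb. The mean PETs were 5.09 in the 2861 loops of 100 to 150 kb, 4.96 in the 1246 of 150 to 200 kb, 4.94 in the 1190 of 200 to 300 kb, 4.56 in the 445 of 300 to 400 kb and 4.01 in the 208 of 400 to 500 kb. The share with 10 or more PETs was 7.79%, 6.74%, 6.64%, 5.62% and 3.37% in the same order. At the edges of the rule, the 10 loops just inside 100 kb (100046 to 100126 bp) had 3 to 13 PETs with a median of 4, and the 10 just outside (99985 bp and below) had 3 to 18, also with a median of 4. The 10 just inside 500 kb had 3 to 8 PETs and the 10 just outside 3 to 7, both with a median of 3. The 4 loops whose narrower anchor was 700 bp wide had 3 to 6 PETs, and the 6 at 699 bp had 3 to 4. Long-range loops were on every autosome and on X, and made up between 9.53% (chromosome 11) and 21.4% (chromosome 13) of a chromosome's wide-anchor loops.

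Gene ends were at one anchor of many long-range loops and at both anchors of few. An anchor was put at a gene when it lay within 5 kb of either annotated end of a protein-coding gene, an annotation that the rule did not use. Both anchors were at gene ends in 501 loops (8.42%, Wilson 95% interval 7.74 to 9.15%), 1 anchor in 2092 (35.2%) and neither in 3357 (56.4%, 55.2 to 57.7%). In wide-anchor loops up to 100 kb the shares were 12.2%, 36.6% and 51.3%, and in those over 500 kb 9.85%, 36.3% and 53.8%. Intervals here and below cover counting error only, since many long-range loops share an anchor and PETs may include PCR copies.

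The share with gene ends on both sides was lower in the stronger long-range loops. Both anchors were at gene ends in 9.80% of the 3041 loops with 3 PETs, in 7.32% of the 1202 with 4, in 7.14% of the 1289 with 5 to 9, in 5.84% of the 308 with 10 to 19 and in 4.55% of the 110 with 20 or more (5 loops, interval 1.96 to 10.2%). The interval at 3 PETs was 8.79 to 10.9% and overlapped that at 20 or more. Loops with 1 anchor at a gene end made up 43.6% of those 110, against 35.2% overall. None of the 20 strongest joined gene ends on both sides.

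Loops of the same span in the other 5 libraries had lower shares at gene ends and narrower anchors. Over loops of 100 to 500 kb with any anchor width, both anchors were at gene ends in 8.23% at ZT10, against 5.19% at ZT22. The shares were 4.29% and 3.69% in dhIDR replicates 1 and 2, and 4.13% and 3.73% in WT replicates 1 and 2. Neither anchor was at a gene end in 58.2% at ZT10, 71.3% at ZT22, 73.9% and 75.6% in dhIDR, and 74.2% and 75.7% in WT. The median anchor width was 1067 bp at ZT10 and between 601 and 626 bp in the other 5 libraries, and a wider anchor reaches more gene ends; its part in the difference was not tested.

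**Figure D2:**
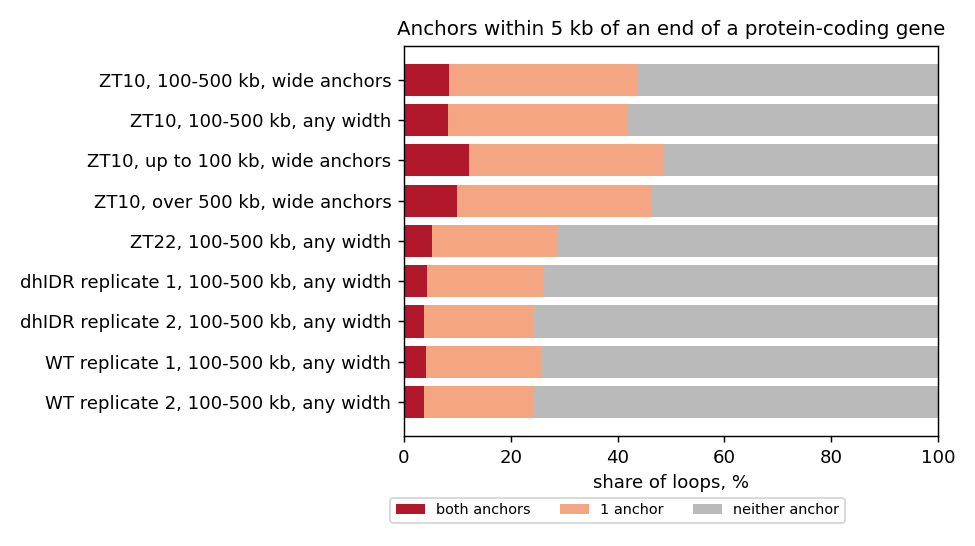
Share of loops (horizontal axis, percent) with both, 1 or neither anchor within 5 kb of an end of a protein-coding gene, in 4 sets of knock-in ZT10 loops and in the loops of 100 to 500 kb of the other 5 libraries. The both-anchor share is 8.42% in the long-range loops and highest, 12.2%, in wide-anchor ZT10 loops up to 100 kb, and lowest, 3.69%, in dhIDR replicate 2.

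Where 1 end of a gene was in reach of a long-range anchor, it was mostly the start. Strand was taken from RefSeq's promoter table, which holds no gene of chromosome 18, and off that chromosome 1477 of the 1820 genes at long-range anchors (81.2%) had one. Of 2503 pairs of an anchor and a stranded gene in which only 1 end of the gene was in reach, 1809 (72.3%, interval 70.5 to 74.0%) had the start in reach. The share was 65.6% in wide-anchor loops up to 100 kb and 77.4% in long-range loops with 10 or more PETs. Over loops of 100 to 500 kb with any anchor width it was 69.6% at ZT10 and 54.5% at ZT22, 52.4% and 49.8% in dhIDR replicates 1 and 2, and 53.1% and 51.3% in WT replicates 1 and 2. Anchors of the ZT10 library were the widest here too, and the part of that in the difference was not tested.

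Away from protein-coding gene ends, many long-range loops had an anchor at an lncRNA end. Of the 3357 loops with neither anchor at a coding gene end, 1266 (37.7%, 36.1 to 39.4%) had an anchor within 5 kb of an end of 1 of the 12727 annotated lncRNA genes, and 158 had both. Among those with 10 or more PETs, 124 of 248 did (interval 43.8 to 56.2%). The share was 31.8% in wide-anchor loops up to 100 kb. Over loops of 100 to 500 kb with any anchor width it was 33.6% at ZT10 and 17.4% at ZT22, 18.3% and 15.9% in dhIDR replicates 1 and 2, and 17.6% and 16.5% in WT replicates 1 and 2, again in libraries with narrower anchors than at ZT10. This count was added after values were seen.

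Few long-range loops lay along a single gene, a number that the span rule itself limits. Both anchors can reach the same gene only where that gene is about 100 kb or longer, and genes of that length were not counted. Of the 11900 anchor ends, 48.1% overlapped the body of a protein-coding gene (from annotated start to end, exons and introns not told apart), and in 675 loops (11.3%) both anchors lay in the body of 1 gene. In 3538 loops (59.5%) no protein-coding gene lay wholly between the anchors, and the most was 26. Of the 501 loops with gene ends at both anchors, 16 joined both ends of the same gene. The strongest of those 16 was at Irf2, a factor of the interferon response, which had 4 of the 16, with 18, 6, 3 and 3 PETs. Prom1 had 8 PETs in such a loop, Ddah1, which degrades inhibitors of nitric oxide synthase, had 7, and Elovl6, a fatty acid elongase, had 4.

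The 5 strongest loops with gene ends at both anchors joined different genes, with 0 to 5 protein-coding genes wholly between the anchors. On chromosome 18 a 39-PET and a 29-PET loop joined the translation factor gene Eif1a to an anchor in reach of both Atg12, which acts in autophagy, and Cdo1, which degrades cysteine. On chromosome 13 a 31-PET loop (anchors 52829622 to 52834380 and 52978975 to 52983496) joined Auh, which encodes an enzyme of leucine breakdown, to the Nfil3 promoter printed above. A 22-PET loop of 101 kb on chromosome 10 joined Nr1h4, which encodes the bile acid receptor FXR, to Scyl2, with 1 gene between. Another 22-PET loop, of 112 kb on chromosome 14, joined Klhl33 to Rnase10, with 5 genes between. These loops were singled out after their values were seen.

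The 20 strongest long-range loops held 1207 PETs, 4.09% of the total, and 11 of them had 1 anchor at a protein-coding gene end. Coordinates are in mm10 as deposited, where the file does not say whether starts count from 0 or 1. The strongest joined chr7:70522749-70526037, inside the body of Gm44812, to chr7:70798663-70801351, over 276 kb, with 101 PETs (exact Poisson 95% interval 82.3 to 123). Neither anchor was at a gene end, and the far anchor lay 214 kb from the nearest. The next pair fanned out from nearly the same place on chromosome 8. One, with 99 PETs (80.5 to 120), ran from chr8:35210358-35214492 to chr8:35373816-35380599 at Ppp1r3b, which encodes a liver subunit that directs a phosphatase to glycogen. The other, with 93 PETs (75.1 to 114), ran from chr8:35210842-35219130 to chr8:35413173-35420074, 25.03 kb from the nearest coding gene end.

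Clock and liver regulators stood at several of the next loops. The fourth and seventh had 85 PETs (67.9 to 105) and 64 PETs (49.3 to 81.7) and shared the anchor at Npas2, joining chr1:39188587-39195197 to chr1:39023300-39028727 and chr1:39191398-39194865 to chr1:39065398-39068593. Id2, which encodes a helix-loop-helix inhibitor without a DNA-binding part, had a loop of 69 PETs over 137 kb. Foxa2, a pioneer factor of the liver, had one of 60 PETs over 104 kb. Tbl1xr1, a subunit of the NCoR complex that REV-ERBα recruits, had one of 57 PETs over 112 kb. Bhlhe40, a clock repressor, had one of 55 PETs over 203 kb, and Bcl6, a repressor of lipid genes in liver, one of 49 PETs over 233 kb.

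The rest of the 20 included the predicted gene Gm46240 with 72 PETs, the chemokine gene Cxcl12 with 53 and the phosphatase gene Ptp4a1 with 47. The other 7, ranked 14 to 20 with 40 to 47 PETs, had no coding gene end within 5 kb, and the Poisson intervals of neighbours in this order overlapped throughout.

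**Figure D3:**
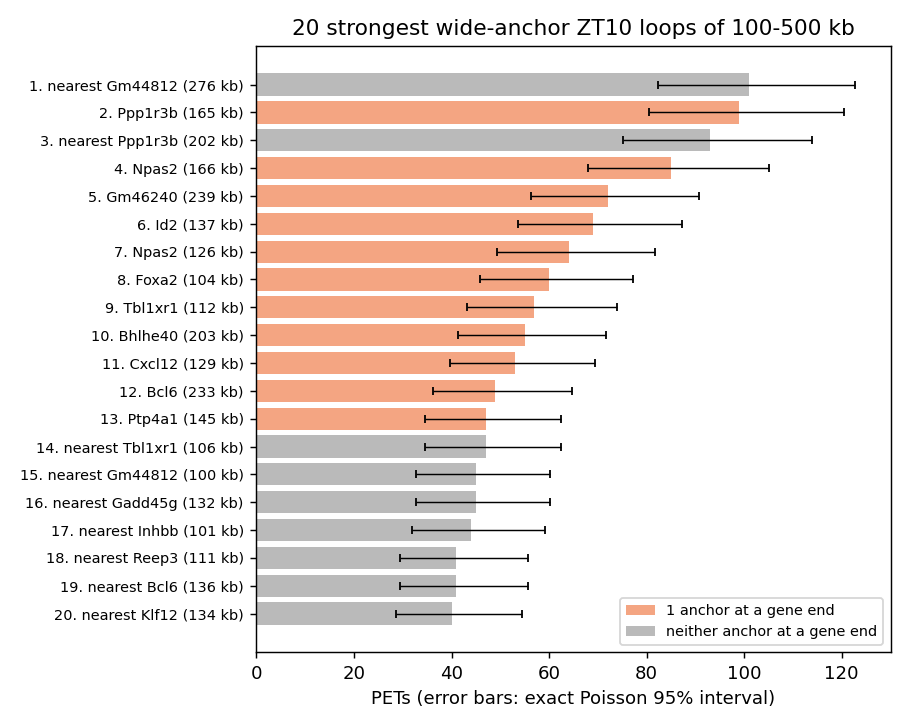
PETs of the 20 strongest long-range loops (horizontal axis, bars, with exact Poisson 95% intervals), each named by the gene at an anchor or the nearest gene, with its span. Bars run from 101 to 40 PETs, 11 have 1 anchor at a gene end and 9 have neither, and neighbouring intervals overlap.

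Summed over long-range loops, the counts per gene were uneven. Of 21887 protein-coding genes, 1864 (8.52%) had an end at a long-range anchor, which was 19.8% of the 9413 genes at any ZT10 loop. Of those 1864, 1189 had 1 such loop and 12 had 100 or more PETs. The 10 leading genes were Npas2 with 270 PETs in 16 loops, Gm46240 and Ppp1r3b with 207 each in 15 and 14, Bhlhe40 with 181 in 18, Irs2 with 178 in 22, Gm38457 with 141 in 17, Auh with 127 in 13, Bcl6 with 121 in 14, and Nfil3 and Tbl1xr1 with 119 each in 11 and 14. Neighbouring genes share loops, as Auh and Nfil3 do.

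At some of these genes the loops ran to 1 side. All 18 loops of Bhlhe40 and all 14 of Ppp1r3b ran to lower coordinates, as did 13 of 16 at Npas2, while all 14 of Bcl6 and all 8 of Id2 ran to higher ones. Irs2, which encodes a docking protein of the insulin receptor, had 15 loops to the lower and 7 to the higher side, with 38 PETs in the strongest, and Auh had 5 to the lower and 8 to the higher side. The long-range share of a gene's ZT10 PETs was 52.7% at Npas2, 46.6% at Ppp1r3b, 59.5% at Bhlhe40, 35.7% at Irs2, 43.5% at Bcl6, 68.8% at Nfil3 and 28.4% at Tbl1xr1.

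The leading genes had few long PETs in the other libraries. They were chosen for high PETs at ZT10, so lower values elsewhere follow in part from the choice and were not tested. All loops of 100 to 500 kb with any anchor width held 39347 PETs at ZT10 and 20135 at ZT22. They held 35099 and 29187 in dhIDR replicates 1 and 2, and 16722 and 36107 in WT replicates 1 and 2. Over loops of 100 to 500 kb with any anchor width, Npas2 had 276 PETs at ZT10 and 3 at ZT22, 0 in both dhIDR libraries, and 10 in each WT library. Ppp1r3b had 207 at ZT10 and 6 at ZT22, and 0 in all 4 AAV libraries. Bhlhe40 had 191 at ZT10 and 6 at ZT22, 0 and 6 in dhIDR replicates 1 and 2, and 0 in both WT libraries. Irs2 had 188 at ZT10 and 0 at ZT22, 3 and 0 in dhIDR, and 3 and 0 in WT. Among these 4 genes Npas2 alone had PETs in both WT libraries. A listed loop has at least 3 PETs, so a 0 stands for any number of unlisted pairs with at most 2 PETs each.

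The core clock list had 5 of its 20 genes at long-range anchors, beside 8.52% of all protein-coding genes. Among its 14 genes at any ZT10 loop the share was 35.7%, beside 19.8% of all protein-coding genes at any ZT10 loop. The 5 were Npas2, Bhlhe40, Nfil3, Hlf and Nr1d1. Hlf, an activator of clock output genes, had 6 PETs in 2 loops, and Nr1d1 itself had 3 PETs in 1 loop of 477 kb, in reach of Nr1d1 and its neighbour Thra. Together the 5 held 579 long-range PETs, 29.2% of the list's ZT10 PETs, against 7.63% over all protein-coding genes. Nr1d1 had 265 ZT10 PETs in all, of which 1.13% were long-range, and Hlf had 174, of which 3.45% were. Per2, a repressor of the core loop, had 217 ZT10 PETs and Ciart, another repressor, had 90, and neither had a long-range loop.

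Of 9 corepressor genes 6 were at long-range anchors, with 24.8% of the list's ZT10 PETs in them, led by Tbl1xr1 with 119 PETs and Irf2bp2 with 86. Of 24 liver transcription factor genes 12 were, with 21.3% of PETs, led by Bcl6 with 121 PETs and Foxa2 with 88. Of 14 glucose genes 4 were, with 17.5%, and those with most PETs were the insulin signalling genes Irs2 with 178 and Irs1 with 72. Lists were written with earlier results of these libraries known, so their counts are description.

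Lists of enzymes and secreted proteins had a smaller part of their PETs in long-range loops. In the lipogenesis list 4 of 22 genes and 4.17% of ZT10 PETs were long-range, led by Elovl6 with 23 PETs and the desaturase gene Fads2 with 13. In the cholesterol and bile acid list the values were 4 of 20 genes and 3.79%, led by Nr1h4 with 45 PETs and Cyp7b1, a bile acid synthesis enzyme, with 7. In the xenobiotic list they were 4 of 18 and 5.76%, of which Ahr, the dioxin receptor, held 78 PETs and the glutathione transferase gene Gstm1 9. Ahr had 95.1% of its 82 ZT10 PETs in long-range loops.

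Fatty acid oxidation had 4 of 16 genes and 1.59% of PETs, led by Acadl, an acyl-CoA dehydrogenase, with 8 PETs and the thioesterase gene Acot1 with 6. The acute phase list had 7 of 16 genes and 5.63%, led by Orm1 with 22 PETs and Saa3 with 18. The list of secreted hepatocyte proteins had 5 of 21 genes, among them the thyroxine carrier gene Ttr with 12 PETs. Its 4755 ZT10 PETs were the most of any of the 10 lists, and 42 of them (0.883%) were long-range. Most of the 4755 stood at the neighbouring fibrinogen genes Fga, Fgb and Fgg, with 1022, 930 and 1216 PETs and no long-range loop. List totals were summed per gene, so a loop in reach of several genes of a list counts at each of them. Among list genes at any ZT10 loop, the share with a long-range loop ran from 20.0% (lipogenesis, and cholesterol and bile acids) to 66.7% (corepressors), beside the 19.8% of all protein-coding genes counted the same way.

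Markers of liver cell types bear on the labelled tissue. Of 10 hepatocyte markers 3 were at long-range anchors, beside 8.52% of all protein-coding genes. Over all ZT10 loops 9 of the 10 had 781 PETs in all. No marker of Kupffer cells (10), endothelium (9), stellate cells (10) or lymphocytes (9) was at a long-range anchor. Only 1, 6, 7 and 2 of these markers were at any ZT10 loop, and lists this short say little beside a share of 8.52%. Over all ZT10 loops these lists had 3, 79, 33 and 15 PETs. Of 6 cholangiocyte markers, Sox9 had 7 long-range PETs. These values cover the ZT10 library alone. Over loops of 100 to 500 kb with any anchor width, hepatocyte markers had 28 PETs at ZT10 and 3 at ZT22. They had 3 and 0 in dhIDR replicates 1 and 2, and 6 and 11 in WT replicates 1 and 2. In the same order Kupffer cell markers had 0, 3, 3, 13, 8 and 6, so hepatocyte markers did not lead in every library.

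**Figure D4:**
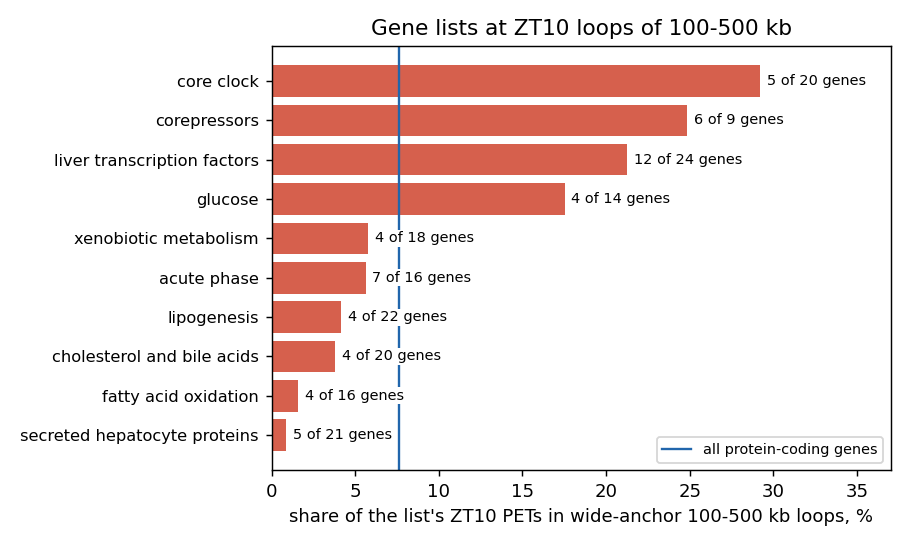
Share of each list's ZT10 PETs that lay in long-range loops (horizontal axis, percent), with the number of list genes at a long-range anchor beside each bar and the share over all protein-coding genes as a line at 7.63%. The core clock, corepressor, liver transcription factor and glucose lists lie between 29.2% and 17.5%, and the other 6 lists lie below the line.

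Long-range loops shared anchors. Merging overlapping anchors gave 6944 places, of which 71.1% had 1 loop, 378 (5.44%) had 5 or more and 69 had 10 or more. In all, 4733 long-range loops (79.5%) shared an anchor with another, so the loops are not independent of each other. Joined through shared anchors they formed 1910 groups, 1217 of them a single loop. The largest by anchors, with 42 anchors, 73 loops and 437 PETs, covered Bcl6 and Lpp on chromosome 16, and the one with most loops covered Irs2 on chromosome 8, with 38 anchors, 92 loops and 536 PETs.

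The 5 places with most loops were away from gene ends. The first, chr16:24222405-24229918, took part in 42 loops with 308 PETs to 25 partner places, and the nearest coding gene end, of Lpp, was 163 kb away. The next 4 had 25, 23, 23 and 22 loops and lay 23.9 kb from Col4a1, 214 kb from Gm44812, 139 kb from Irf2bp2 and 114 kb from Ust. A gene end was in reach of 30.3% of places with 1 loop, 26.2% of those with 2 to 4, 22.3% of those with 5 to 9, and 21.7% (15 of 69, interval 13.6 to 32.8%) of those with 10 or more, although the merged places widened in that order (medians of 1099, 1769, 2998 and 3963 bp). Over all 6944 places the share was 28.9%, which lies within the interval at 10 or more loops. Among the 20 places with most loops, Irs2, Npas2, Bhlhe40 and Gm46240 were in reach, with 17, 16, 15 and 14 loops.

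Part of the long-range loops ran over steps of shorter ones in the same library. Both anchors overlapped anchors of wide-anchor loops up to 100 kb in 62.0% of the 5950 loops. In 21.1% the ends were joined by 2 such loops sharing a middle place, and in 34.9% (2078 loops) by a chain of any number of them. Loops with a chain had a mean of 6.09 PETs, and the 3872 without one had a mean of 4.35, with the 101-PET loop among them. Wider anchors overlap others more easily, and the part of width in these values was not tested. No other set of loops was counted in this way.

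Few long-range loops were listed again in another library. A loop was called matched when both of its anchors overlapped those of a loop in the other library by 1 bp or more. At ZT22, 25 of the 5950 were matched (0.420%, Wilson interval 0.285 to 0.620%), against 0.969% of all ZT10 loops. In dhIDR replicates 1 and 2, 23 (0.387%) and 8 (0.134%) were matched, against 0.617% and 0.266% of all ZT10 loops. In WT replicates 1 and 2, 8 (0.134%) and 13 (0.218%) were matched, against 0.297% and 0.358% of all. As a share of the other library's own loops of 100 to 500 kb, the matching loops were 0.404% at ZT22, 0.234% and 0.105% in dhIDR and 0.161% and 0.116% in WT.

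The matched share was higher at 10 or more PETs than at 3 to 4 PETs in each library, on few loops. Anchor widths were not matched between these classes. In the 20 strongest loops the narrower anchor was 2688 bp or wider, against a median of 1005 bp over all long-range loops. A wider anchor meets a 1 bp overlap more easily, and its part in the difference was not tested. Among the 418 long-range loops with 10 or more PETs it was 2.15% at ZT22, 1.44% and 0.239% in dhIDR replicates 1 and 2, and 1.20% and 1.44% in WT replicates 1 and 2. Among the 4243 with 3 to 4 PETs it was 0.165%, 0.236% and 0.0707%, and 0.0471% and 0.0943% in the same libraries. Among the 1289 with 5 to 9 PETs it was 0.698% at ZT22, 0.543% and 0.310% in dhIDR, and 0.0776% and 0.233% in WT, so that in dhIDR replicate 2 the share at 5 to 9 PETs was above that at 10 or more, which rests on 1 loop (interval 0.0422 to 1.34%). At 10 or more PETs the wide-anchor loops up to 100 kb were matched in 4.87% at ZT22, 3.69% and 1.63% in dhIDR and 1.59% and 1.75% in WT, and the intervals of both spans overlapped in dhIDR replicate 2 and in WT replicates 1 and 2. Single anchors recurred more: at least 1 anchor overlapped some anchor in 33.9% of long-range loops at ZT22, in 36.1% and 25.8% in dhIDR, and in 20.2% and 28.3% in WT.

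**Figure D5:**
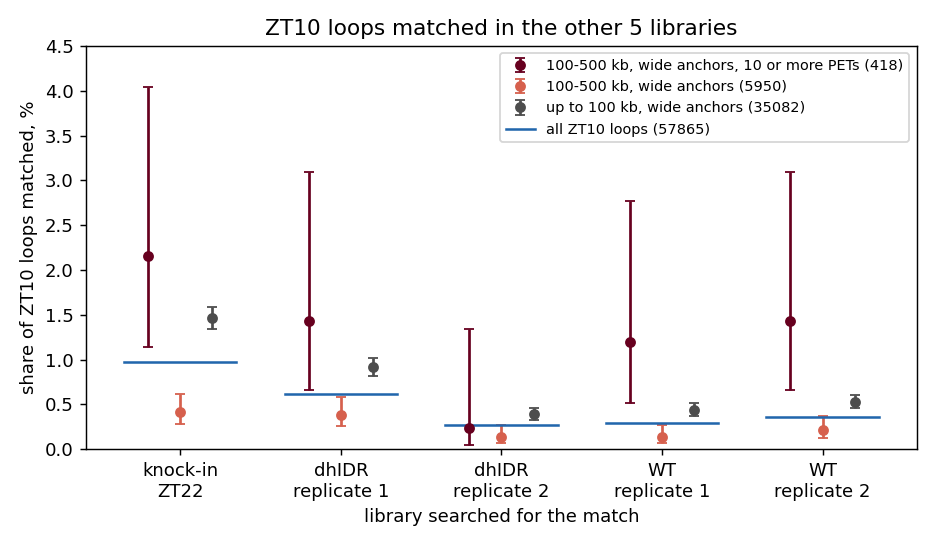
Share of ZT10 loops matched at both anchors (vertical axis, percent, with Wilson 95% intervals) in each of the other 5 libraries, for long-range loops with 10 or more PETs, all long-range loops and wide-anchor loops up to 100 kb, with the share of all ZT10 loops as a line. The points of all long-range loops lie below the line in every library, from 0.420% at ZT22 to 0.134% in dhIDR replicate 2 and WT replicate 1.

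In all, 74 long-range loops (1.24%) were matched in at least 1 library, 72 of them in exactly 1. Both exceptions were at Npas2. The 85-PET loop was matched by 5 PETs in WT replicate 1 and 4 in WT replicate 2, and was not listed at ZT22 or in either dhIDR library. The 64-PET loop was matched by 3 PETs at ZT22, 5 in WT replicate 1 and 6 in WT replicate 2, and was not listed in either dhIDR library. No long-range loop was matched in both dhIDR libraries, and these 2 were matched in both WT libraries. The absence in dhIDR allows a share of up to 0.0504% if loops are counted as independent, which shared anchors do not allow. Both WT matches share the anchor at Npas2, so these counts are too small to tell the constructs apart, and the contrast was not tested. At least 1 dhIDR library matched 31 loops and at least 1 WT library 19.

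Of the 20 strongest loops 5 were matched: both Npas2 loops, the Gm46240 loop by 3 PETs at ZT22, the Ptp4a1 loop by 3 PETs in dhIDR replicate 1, and the 41-PET loop at Gm31583 by 3 PETs in WT replicate 1. Further down, the 33-PET loop at Irs2 was matched by 3 PETs in WT replicate 1, and a 15-PET loop between Auh and Nfil3 by 3 PETs in dhIDR replicate 1. Every one of these named matches beyond Npas2 was at the lowest listed count, but this did not hold for all matched loops. Over all 74, the strongest matching loop had 4 PETs at ZT22 and 7 and 6 in dhIDR replicates 1 and 2. It had 5 and 8 PETs in WT replicates 1 and 2.

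The AAV libraries were set against each other with the long-range loops as a fixed set, which those libraries had no part in choosing. The matched share averaged 0.261 ± 0.178% in dhIDR and 0.176 ± 0.0594% in WT (SD, n = 2 each), a difference of 0.0840 percentage points (exact two-sided permutation test over libraries, p = 1, adjusted p = 1). Matching loops held 4.32 and 2.12 PETs per 10000 listed in the dhIDR libraries, against 2.88 and 2.21 in the WT libraries, a difference of the means of 0.673 (exact permutation p = 1, adjusted p = 1). With the 1 bp match rule both pairs of libraries overlapped. Without dhIDR replicate 1 both differences under that rule turned to favour WT, at -0.0420 percentage points and -0.426 PETs per 10000. With anchors widened by 2 kb, or in pairs of 10-kb bins, both dhIDR libraries lay above both WT libraries in matched share. The differences were then 0.647 and 0.588 percentage points. The smallest p that 2 against 2 libraries allow is 0.333, so no difference could pass 0.05. The p-values reflect the spread of these 4 libraries, which may be technical.

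Loops of 100 to 500 kb as a class made up 19.65% and 18.1% of the loops of the dhIDR libraries, against 16.1% and 17.8% in the WT libraries. Both dhIDR libraries lay above both WT libraries, by 1.94 percentage points on average (18.9 ± 1.12% and 16.9 ± 1.22%, SD, n = 2 each, exact permutation p = 0.333, adjusted p = 1). The knock-in libraries had 15.7% at ZT10 and 15.2% at ZT22. Anchors of 700 bp or more on both sides were found in 65.6% of the ZT10 loops of this span, against 5.26% at ZT22, 0.775% and 0.369% in dhIDR and 2.47% and 1.73% in WT. Listed PETs on nuclear chromosomes ranged from 104161 to 320427 per library, with the ZT10 knock-in library highest. Listed PETs are not the sequencing depth, and their part and that of the anchor widths in the low matched shares were not tested.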

How the data were processed

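In-situ ChIA-PET libraries of mouse liver were made, per the labels' protocols, by formaldehyde and EGS fixation, AluI digestion, ligation in nuclei, pull-down, Tn5 tagmentation and paired sequencing. Each deposited file lists, for 1 library, anchor pairs and the raw PET counts the authors gave them, not normalized and not pooled, with 3 PETs as the lowest count, so an unlisted loop has 0 to 2. Coordinates are in mm10, as the submitters' processing notes name it. Aligner, duplicate filter and cluster caller are not given in the sources used here. Of 8 samples, the 2 with anti-CTCF were not analysed here, and mitochondrial clusters were left out.

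The sample titles gave the groups and replicate numbers. Genes were 21887 protein-coding entries of the RefSeq table for GRCm38.p6, with a window of 5 kb around both ends. Anchors merged where they overlapped. Shares have Wilson intervals and PETs exact Poisson intervals at 95%. For dhIDR against WT the test was an exact two-sided permutation over libraries, Benjamini-Hochberg adjusted over 3 results. Python 3.11.15, pandas 2.3.3, numpy 2.4.6, scipy 1.17.1 and networkx 3.6.1 were used, and the matching was tested on simulated loops.

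Loops, lists and tests were chosen with earlier results of these data known. Named genes were those at the 20 strongest loops, the 10 with most long-range PETs, core clock genes with a long-range loop, the leading 2 of each other list, genes at loops matched in 2 or more libraries and at the 5 places with most loops. One gene taken by this rule is not reported here. All 234 list entries matched by symbol. Alternatives varied anchor width, span measure, PET minimum, gene window, annotation, match rule and replicates.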

Additional observations from a re-analysis of the deposited data

How the results depend on the processing

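Of 86 alternative values, 53 were counted as unchanged, and the cause of the changes below was not tested. Outside the differences between dhIDR and WT, unchanged meant within the spread or 1.5 times of the reported value. For those differences it meant only the same direction, whatever the size. The 53 therefore include differences in matched share of 0.647 and 0.588 points under wider match rules, against 0.0840 reported. They also include differences of 5.34 and 5.10 matching PETs per 10000, against 0.673. The number of long-range loops was 9068 with no minimum on anchor width, 3343 at 1000 bp and 1707 with at least 5 PETs, where the median was 6 PETs. Both anchors were at gene ends in 6.74% with at least 5 PETs, 4.30% within 2 kb, 27.6% within 25 kb and 21.4% with all annotated genes. With anchors widened by 2 kb, the matched shares were 1.83% at ZT22, 2.17% and 1.01% in dhIDR replicates 1 and 2, and 0.924% and 0.958% in WT replicates 1 and 2. In pairs of 10-kb bins they were 1.53%, 1.80% and 0.924%, and 0.689% and 0.857%, and with at least 5 PETs 1.05%, 0.762% and 0.293%, and 0.351% and 0.527%, in the same libraries. At a width of 1000 bp the ZT22 share was 0.628%. Within 25 kb, 10 lipogenesis, 8 cholesterol and bile acid, 7 glucose, 9 xenobiotic and 8 secreted protein genes had a long-range loop, as did 3828 protein-coding genes. Leaving out 1 replicate, the difference between dhIDR and WT ranged from -0.0420 to 0.210 percentage points in matched share, from -0.426 to 1.77 in matching PETs per 10000, and from 1.08 to 2.80 points in the share of 100 to 500 kb loops. The lowest values of the first 2 came without dhIDR replicate 1. With at least 5 PETs the difference in matching PETs turned to -0.223. With anchors widened by 2 kb the differences were 0.647 points in matched share and 5.34 in matching PETs per 10000. In pairs of 10-kb bins they were 0.588 and 5.10, and with a stricter overlap rule 0.0588 and 0.494. With the replicate number as a block the differences stayed at 0.0840 (exact sign-flip p = 1), 0.673 (p = 1) and 1.94 (p = 0.5). No p of 2 pairs can fall below 0.5, so this says nothing about stability. The replicate 1 and 2 differences were 0.252 and -0.0840, 1.44 and -0.0891, and 3.59 and 0.289. The labels give no shared source, and deviations of same-numbered libraries over 2526 bins of 1 Mb correlated at -0.0379. Loops at the lowest count of 3 PETs are the least certain, since 1 PET fewer would have left them unlisted.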
